A study of Oncorhynchus mykiss with 43 samples.

Results

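The clones described here gave a lower signal in the muscle of refed rainbow trout (Oncorhynchus mykiss) than in that of fasted trout at each of the 4 refeeding times sampled. They were selected on those very values. A clone was retained when it had a signal in at least 5 fish of each of the 5 groups and when its mean log2 signal at 4, 7, 11 and 36 days of refeeding was at least 0.3 below its mean in fasted fish, that is, when the log2 difference was at or below -0.3 at all 4 times. Of 9023 spotted cDNA clones, 1561 had enough values to be examined, and 60 of them (3.84%) met the 4 thresholds. The 3 clones of that group that encode ubiquitin, a homolog of the Ariadne-2 protein and a proteasome subunit were set aside, which left 57. The differences with fasted muscle are therefore given as a description and carry no test. All 4 subtract the same mean of the fasted fish, so they are not 4 separate observations.

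Muscle RNA of 43 trout was hybridised, each to a nylon cDNA array of its own. The fish were yearlings of a spring strain, all of which had been deprived of food for about a month, and the refed fish were then offered several times the normal ration. The 8 fasted fish were sampled at the end of the fast, and 9 refed fish each after 4, 7 and 36 days and 8 after 11 days. The sample was a slice of fast muscle from below the dorsal fin, no fish that had stayed on food throughout was analysed here, and the water had its own temperature at each sampling, so that days of refeeding, age and temperature cannot be told apart. The intensity used below is the signal of a spot divided by the amount of DNA in it, as read with an oligonucleotide common to all spots, and then by a median of the array. It has no unit, and it compares a clone between fish but not 2 clones with each other. Sums, ranges and ranks of intensity over clones below are thus a rough description, and in a sum the brighter clones weigh more.

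In fasted fish, muscle protein is a reserve that is broken down to supply amino acids, mainly by lysosomes, whose acid proteases include the cathepsins, and by the ubiquitin-proteasome system, in which proteins tagged with ubiquitin are cut up by the proteasome. Feeding is known to reverse this balance, as protein synthesis increases and the breakdown machinery is turned down. Genes with high transcript levels in the fasted state that are reduced in the fed state are thus a familiar class in muscle, although only a small share of those collected here could be named.

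Just 1 of the 57 clones, 1RT103A16_C_A08, carried a gene name in the sources used here, and this was cathepsin D, the aspartic protease of the lysosome. The other 56 are cDNA clones without a name. Whether some of them derive from the same transcript was not examined, so a count of clones need not be a count of genes. They came from both of the clone collections on the array, with 25 of the 57 (43.9%) from the collection with the prefix 1RT, against 48.2% of the 1561 clones examined, and 32 from the collection with the prefix tc.

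An array listed 1441 to 2616 clones with a signal, and 4414 clones had none on any array. Of 8 skeletal muscle marker clones, the 4 with a value on all arrays (nebulin, both troponin C clones and myosin light chain 1) had a summed intensity of 24.9 to 35.2 in fasted fish, and of 26.1 to 34.5, 24.2 to 44.3, 35.1 to 49.3 and 31.8 to 43.5 at 4, 7, 11 and 36 days of refeeding. The other 4 were listed unevenly, as skeletal alpha actin had a value in 8, 9, 3, 0 and 4 fish of the fasted, 4-, 7-, 11- and 36-day groups, tropomyosin 1 in 2, 7, 8, 7 and 7, and the myosin regulatory light chain 2 clones in 7, 9, 9, 8 and 9 and in 0, 1, 5, 4 and 2. Labelled as muscle, the samples thus lacked a listed value for some defining markers, which cannot be read as absence of their transcripts. The paper places skeletal actin among the genes raised 7 to 36 days after refeeding, yet this clone had no listed value at 11 days. Where listed, skeletal alpha actin had a median intensity of 9.10 in fasted fish and of 16.1, 18.3 and 17.9 at 4, 7 and 36 days. The sums at 11 days touched those of the fasted fish only at their lower end, and their part in the lower signal of the 57 clones was not tested. Apolipoprotein B-100, a liver marker, had a value on 16 arrays with a highest intensity of 0.895, and the clone read as the leucocyte factor PU.1 had no value on any array. The paper names PU.1 among the genes raised during recovery, so the lack of a listed value cannot be read as absence of its transcript. In RNA of whole muscle slices, fewer cells of a type and less RNA per cell cannot be told apart.

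By selection the 57 clones differed from fasted muscle at every sampling, and their median difference was larger at the last than at the first. The median log2 difference over the 57 clones was -0.45, -0.54, -0.59 and -0.75 after 4, 7, 11 and 36 days of refeeding. The medians over all 1561 clones were close to 0 at the same times, at -0.03, -0.02, 0.01 and -0.05. Single thresholds were met by many more clones than the 4 together, since a log2 difference at or below -0.3 was found in 6.21%, 10.5%, 13.2% and 21.2% of the 1561 clones after 4, 7, 11 and 36 days. The differences of all 1561 clones also had a wider spread at 36 days (SD 0.389) than at 4 days (SD 0.259). What this adds to the larger differences of the 57 clones at 36 days was not tested. Among the 57 clones the differences reached from -1.07 to -0.30 at 4 days and from -1.57 to -0.32 at 36 days. A difference at or below -1 was seen in 1 of the 57 clones at 4 days and in 12 at 36 days. Of all 1561 clones, which include the 57, 3 had it at 4 days and 16 at 36 days.

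**Figure D1:**
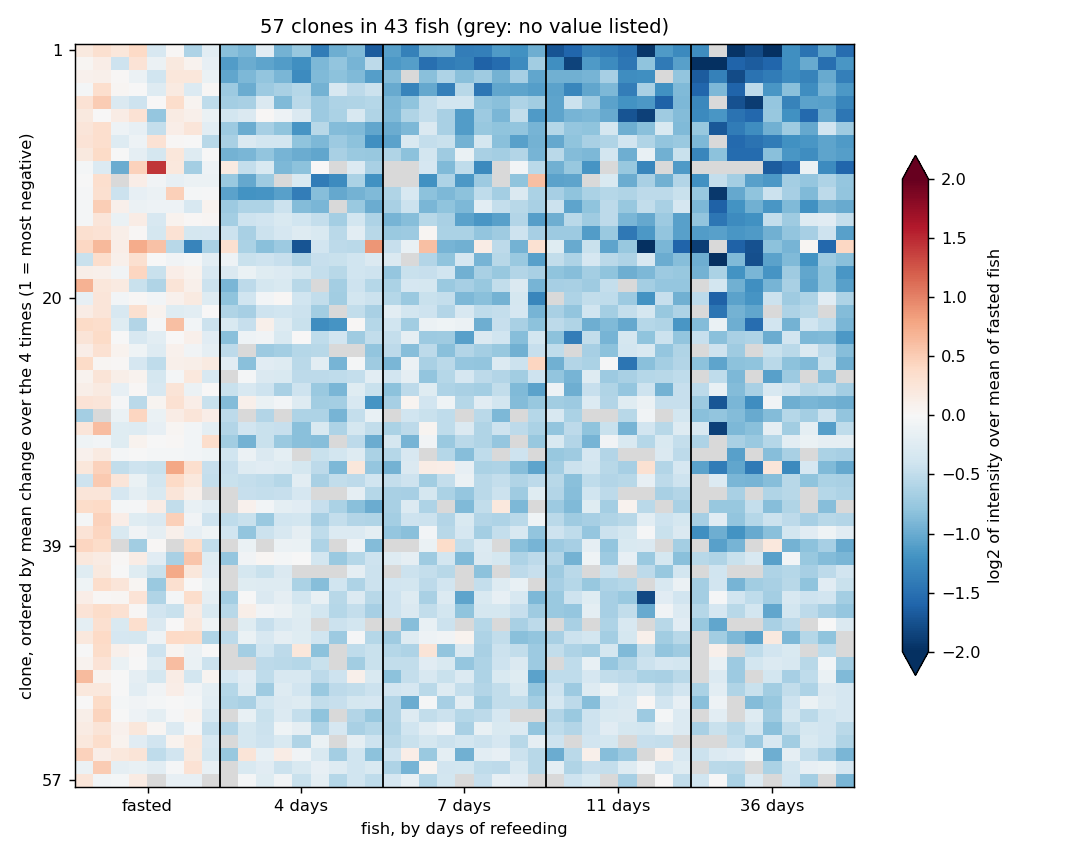
Log2 intensity of the 57 clones (rows, ordered by mean difference over the 4 refeeding times) in the 43 fish (columns, by days of refeeding), relative to the mean of the fasted fish, with blue for lower, red for higher and grey for no value. The clones were selected for being lower after refeeding, and the row order rests on the same differences. The deeper blue of the upper rows, 36 days included, thus follows in part from the order. What the plot adds is the spread between fish of a group, with -2.25 as the lowest value and 1.43 as the highest.

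Clones close to the threshold were not set apart from the rest. Just inside it were tcbk0001.l.22, with differences of -0.30, -0.46, -0.34 and -0.39 at 4, 7, 11 and 36 days, and 1RT36J23_B_E12, with -0.31, -0.39, -0.46 and -0.47. Just outside were tcad0009.n.08, which missed at 4 days (-0.298), and tcay0034.f.12, which missed at 36 days (-0.297). The size of the set is accordingly a matter of the threshold.

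The geometric mean intensity of the 57 clones had a median of 2.25 at 36 days of refeeding and of 3.96 in fasted fish, where it ranged from 0.980 to 28.4. The SD of the log2 values between fish had a median over the 57 clones of 0.283 in the fasted group and of 0.196, 0.240, 0.232 and 0.259 in the refed groups in order of time. The corresponding medians over all 1561 clones were 0.232, 0.184, 0.218, 0.212 and 0.235.

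Values were missing unevenly. All 9 fish at 36 days of refeeding had a value for 31 of the 57 clones (54.4%, against 64.2% of the 1561 clones), whereas all 8 fasted fish had one for 52 of the 57 (91.2%, against 71.2%). In 10 clones there were exactly 5 fish with a value in at least 1 group, and 23 had a value on all 43 arrays. These are shares of full groups of unequal size, and the number of fish with a value at 36 days was below that in fasted fish for 15 of the 57 clones, equal for 9 and above it for 33. The authors excluded spots with a low oligonucleotide signal. Whether this accounts for all empty cells is not given in the sources used here.

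Averaged over the 57 clones, the level of each fish was expressed as its log2 deviation from the mean of the 5 group means. This level was 0.29 to 0.78 in fasted fish (median 0.48), -0.12 to 0.09 at 4 days (median 0.00), -0.16 to 0.07 at 7 days (median -0.09), -0.25 to -0.08 at 11 days (median -0.12) and -0.47 to -0.13 at 36 days (median -0.28). No refed fish reached the lowest fasted fish, which follows in part from the way the clones were selected. Between refed groups, every fish at 36 days lay below every fish at 4 days, while 7 and 4 days overlapped over most of their range. The clones were selected on their means at these times too, and what this adds to the separation of refed groups was not tested. The separation of 36 from 4 days was narrow, as the highest fish at 36 days stood at -0.13 and the lowest fish at 4 days at -0.12. Each fish was averaged over the clones for which it had a value, 39 to 57 at 36 days and 44 to 56 at 4 days. The levels of 2 fish thus do not rest on the same clones.

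Single fish contributed unequally. Fasted fish 3 had the highest level (0.78) and also the highest median over all 1561 clones (0.17), and fasted fish 10 the lowest level of its group (0.29). At 36 days fish 4 stood lowest (-0.47) and fish 9 highest (-0.13). The median over all 1561 clones was between -0.17 and 0.17 in every fish, and its part in the spread between fish was not tested. After removal of the group means, the deviations of 2 clones across fish had a median correlation of 0.14 over 1512 pairs of the 57 clones, and of 0.07 over 1144779 pairs of the 1561 clones, each pair having at least 30 fish with both values. Such deviations share the arrays and their normalization.

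**Figure D2:**
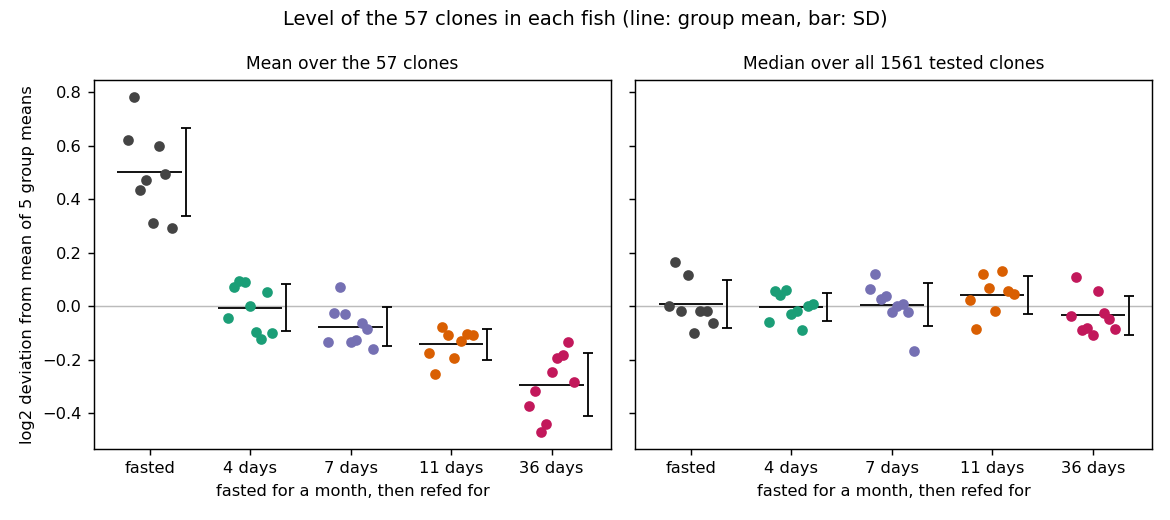
Mean log2 deviation over the 57 clones (left) and median over all 1561 clones (right) in each of the 43 fish, by group, with the group mean as a line and the SD as a bar beside it. On the left the fasted fish lie at 0.29 to 0.78 and the fish at 36 days at -0.47 to -0.13, below every fish at 4 days, whereas on the right all fish lie within 0.17 of 0.

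Cathepsin D, which degrades proteins in the lysosome, was lower in refed than in fasted muscle by more at the later samplings. Its intensity was 3.05 to 4.98 in the 8 fasted fish, with a median of 3.82. It was 2.12 to 3.84 at 4 days (median 2.91), 1.80 to 3.38 at 7 days (median 2.73), 1.46 to 3.00 at 11 days (median 2.20) and 1.72 to 2.92 at 36 days (median 2.14). Fish at 4 days overlapped with fasted fish, 5 of 9 being below all of them, and by 11 and 36 days every refed fish was below every fasted fish. The mean intensity was 2.28 ± 0.398 at 36 days and 3.86 ± 0.672 in fasted fish (SD, n = 9 and 8), and the log2 differences with fasted fish were -0.38, -0.57, -0.75 and -0.76 at 4, 7, 11 and 36 days.

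Refed groups were compared with each other in limma, on log2 values and in 1 fit over all arrays, with p adjusted over the 1561 clones by the method of Benjamini and Hochberg and 0.05 as the threshold. These contrasts were not used to select the clones, but the selection bounds both means of each contrast from above, and the contrasts share groups. Cathepsin D was lower at 36 days than at 4 days by a log2 difference of -0.38 (SE 0.13, limma adjusted p = 0.0188), with 9 of 9 fish at 36 days below the mean at 4 days. The difference between 11 and 4 days was about as large (-0.37) but missed the threshold (limma adjusted p = 0.0872), and between 36 and 11 days it was -0.01 (limma adjusted p = 0.958).

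Of the 57 clones, 56 have no name and could not be assigned to a process. Cathepsin D was the only one labelled for protein degradation, as were the 3 clones set aside. The study labels 44 clones as belonging to this process, a list that was chosen on these same fish and is no independent evidence of a direction, and 17 of them had enough values. After 4, 7, 11 and 36 days, 6, 6, 9 and 15 of the 17 had a log2 difference with fasted fish at or below -0.3, and 4 of the 17 met the threshold at all times. Their median differences were -0.18, -0.26, -0.30 and -0.41. None of the 81 other named clones with enough values met the threshold at all 4 times. The paper's other figures with gene labels show clones that it grouped as raised after refeeding. This count was thus largely set by how those clones were chosen, and it is no contrast with the 4 of 17. Between refed groups, 7 of the 17 were lower and 0 higher at 36 than at 4 days, 3 lower and 0 higher at 36 than at 11 days, and 1 lower and 0 higher at 11 than at 4 days (limma, without adjustment 10 and 2, 6 and 1, and 4 and 2 at p under 0.05). Over all 1561 clones, 19.7% were lower and 19% higher at 36 than at 4 days by adjusted p. These shares were 16.7% and 7.69% at 36 against 11 days, and 1.28% and 5% at 11 against 4 days. The 3 of 17 at 36 against 11 days were near the share over all clones. Shares without adjustment are not given here, so the unadjusted counts of the 17 have no background.

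The 3 clones set aside were ubiquitin, the tag of the proteasome pathway, with log2 differences of -1.11, -0.80, -0.77 and -0.81 at 4, 7, 11 and 36 days, the homolog of Ariadne-2, a ubiquitin ligase, with -1.59, -1.26, -1.17 and -1.42, and non-ATPase regulatory subunit 12 of the 26S proteasome, with -0.37, -0.36, -0.30 and -0.63. Ubiquitin and the Ariadne-2 homolog had more negative differences at 4 days than any of the 57 clones, whereas cathepsin D, at -0.38, was near the proteasome subunit at that time.

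The largest differences in the set were those of the unnamed clones 1RT50H10_D_D05 and 1RT139I10_C_E05, with means over the 4 times of -1.29 and -1.27. For 1RT50H10_D_D05 the intensity was 6.73 to 13.7 in fasted fish (median 11.1), 3.28 to 8.82 at 4 days (median 5.50), 3.96 to 5.43 at 7 days (median 4.72), 2.67 to 4.72 at 11 days (median 3.80) and 2.17 to 4.93 at 36 days (median 3.65). Only 1 refed fish, at 4 days, came within the fasted range. At 36 days the geometric mean was 0.338 of that in fasted fish, a log2 difference of -1.57. This clone was lower at 36 than at 4 days (log2 difference -0.61, SE 0.15, limma adjusted p = 0.00208) and at 11 than at 4 days (-0.53, SE 0.15, limma adjusted p = 0.0237), the last call being lost without fish 4 at 4 days or without fish 2 or fish 7 at 11 days (limma adjusted p = 0.0732, 0.0553 and 0.0746).

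Clone 1RT139I10_C_E05 had an intensity of 4.03 to 6.46 in fasted fish (median 5.59), 2.28 to 3.75 at 4 days (median 2.71), 1.76 to 3.30 at 7 days (median 2.10), 1.48 to 3.08 at 11 days (median 2.27) and 1.28 to 2.68 at 36 days (median 1.80). No refed fish at any time came up to the lowest fasted fish. It was lower at 36 than at 4 days (-0.58, SE 0.13, limma adjusted p = 0.000733), with 9 of 9 fish below the mean at 4 days, while the differences of 11 with 4 days (-0.32) and of 36 with 11 days (-0.26) missed the threshold (limma adjusted p = 0.152 and 0.157).

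Complete separation from the fasted fish, with every refed fish below every fasted fish, was found for 16, 9, 17 and 19 of the 57 clones after 4, 7, 11 and 36 days. It held for 1.28%, 0.833%, 1.47% and 2.69% of all 1561 clones at these times, and for 0.384% at all 4 times together. The 1561 include the 57, and separation rests on the same values as the selection. A larger share among the 57 was therefore built in. The 5 clones of the set that were separated at all 4 times were 1RT139I10_C_E05, tcba0017.g.03, tcbi0010.p.13, 1RT35J02_D_E01 and 1RT86C03_A_B02, the last 3 of which were singled out after their values were seen. They did not follow a single course. In 1RT35J02_D_E01 the signal was at its refed level from the start. It was 0.851 to 1.02 at 4 days (6 fish with a value) and 0.819 to 1.21 at 36 days (7 fish with a value), against 1.24 to 1.82 in the 8 fasted fish. In 1RT86C03_A_B02, a dim clone, it was 0.725 to 1.03 at 4 days (8 fish with a value) and 0.525 to 0.724 at 36 days (5 fish with a value), against 1.05 to 1.27 in the 8 fasted fish. This clone was lower at 36 than at 4 days (-0.44, SE 0.10, limma adjusted p = 0.00096), whereas the difference of 1RT35J02_D_E01 was 0.11 (SE 0.10, limma adjusted p = 0.401).

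To see how the clones moved within the refeeding period, the 36-day group was set against the 4-day group. Of the 57 clones, 21 (36.8%) were lower and 1 (1.75%) was higher at 36 days by the limma test, where 19.7% of all 1561 clones were lower and 19% higher. The median log2 difference was -0.28 over the 57 clones and -0.08 over all 1561, the range over the 57 was -0.90 to 0.34, and the difference was negative in 49 of the 57 (85.96%, against 60.7% of the 1561). The selection held both means of this contrast at or below -0.3 against fasted fish, which the 1561 clones were not held to. Fewer of the 1561 met that cut at 4 days (6.21%) than at 36 days (21.2%). An excess of lower over higher clones among the 57 is thus partly built in, and the size of that part was not tested. Fewer clones passed in the comparisons with the 11-day group. At 11 against 4 days, 5 of the 57 were lower and 1 higher (1.28% lower and 5% higher among the 1561), with a median difference of -0.11 against 0.02 over all 1561, and without adjustment 14 were lower and 2 higher at p under 0.05. At 36 against 11 days, 8 were lower and 0 higher (16.7% and 7.69% among the 1561), with medians of -0.09 and -0.08, and without adjustment 14 were lower and 1 higher at p under 0.05. By adjusted p, the share of clones lower at 36 than at 11 days (14.04%) was thus near that over all clones. Shares of the 1561 clones without adjustment are not given here. The unadjusted counts therefore have no background and cannot be read as particular to the 57. The count of 5 was 3 without fish 2 at 11 days, 10 when each array was recentred on clones listed on every array, 10 with array weights and 8 when the 2 groups were fitted alone, and the count of 8 was 5 without fish 7 at 11 days or fish 3 at 36 days.

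At a stricter threshold of 0.0001, 3 of the 57 clones were lower and 0 higher at 36 than at 4 days by limma (2.31% and 1.6% of the 1561). At 11 against 4 days 0 of the 57 passed in either direction (0% of the 1561 lower and 0.256% higher), and likewise at 36 against 11 days (0.833% lower and 0% higher). The 3 were 1RT77L18_D_F09, tcaa0001.j.17 and 1RT135B03_B_A02, the last of which was added after its values were seen.

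**Figure D3:**
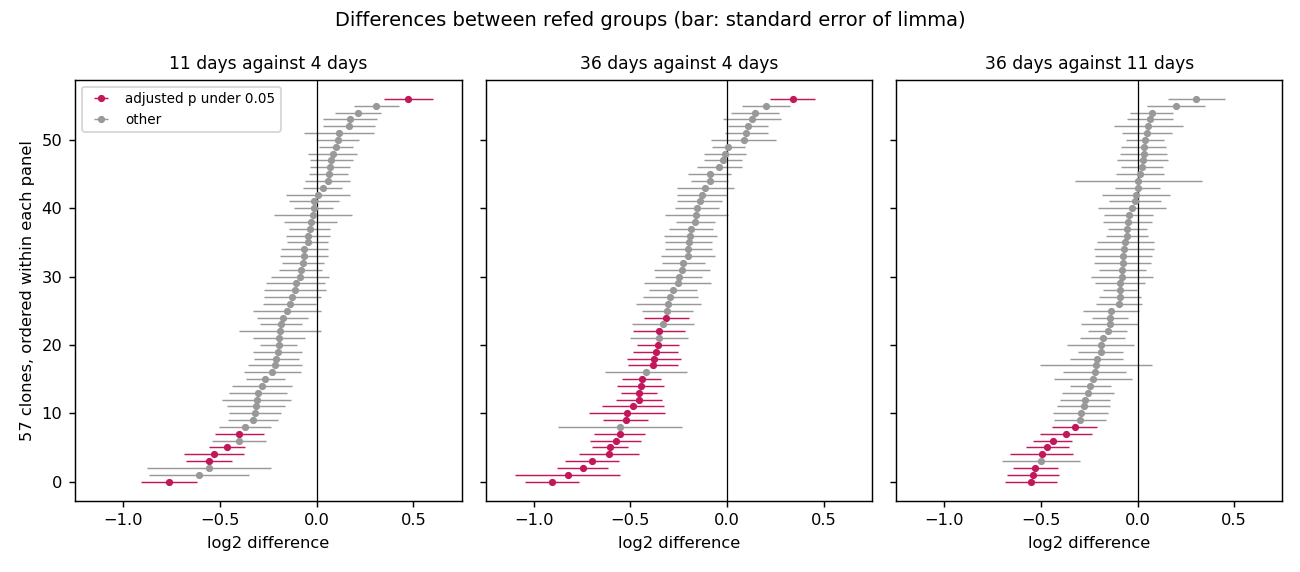
Log2 difference between refed groups for each of the 57 clones, ordered within each panel, with the standard error of limma as a bar and clones with an adjusted p under 0.05 in red. At 36 against 4 days (middle) 21 clones lie to the left of 0 and 1 to the right among those in red, against 5 and 1 at 11 against 4 days (left) and 8 and 0 at 36 against 11 days (right).

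The share of the 36-day difference that was already there at 4 days had a median of 63.0% over the 57 clones and ranged from 28.9% to 182%. In 8 clones the difference at 4 days was the larger one, in 36 others the share was at least 50%, and in 13 it was under 50%. Both differences in this share were used to select the clones, and both subtract the same fasted mean. Clones with little difference at 4 days could not enter the set. The share is thus a description and does not show that the decline was mostly early. The lowest of the 4 refed means was that of the 36-day group in 37 clones (64.9%, against 49.9% of the 1561), and of the 4-, 7- and 11-day groups in 6, 6 and 8. In 18 clones (31.6%, against 11.3% of the 1561) each refed mean was level with or below the one before it. The 1561 clones were not held to the thresholds, so these shares compare selected with unselected clones.

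Some clones declined stepwise through the first 11 days of refeeding. The lowest p of the 11 against 4 days comparison belonged to tcaa0001.j.17, whose intensity was 6.64 to 13.98 in fasted fish (median 12.4), 6.86 to 11.5 at 4 days (median 9.13), 5.19 to 8.15 at 7 days (median 6.91), 3.13 to 6.97 at 11 days (median 5.80) and 3.85 to 6.76 at 36 days (median 4.69). At 4 days no fish was below all fasted fish, as the lowest fasted fish, at 6.64, stood far from the other 7. The clone was lower at 11 than at 4 days (-0.77, SE 0.14, limma adjusted p = 0.000335) and at 36 than at 4 days (-0.90, SE 0.14, limma adjusted p = 4.34e-06), with all 8 and all 9 fish below the 4-day mean. Its difference between 36 and 11 days was -0.14 (limma adjusted p = 0.522).

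A like course was seen for 1RT77L18_D_F09, with 6.46 to 11.8 in fasted fish (median 9.33), 5.97 to 8.06 at 4 days (median 6.94), 4.52 to 6.70 at 7 days (median 5.64), 4.45 to 5.52 at 11 days (median 5.05) and 3.84 to 5.70 at 36 days (median 4.57). By 11 days all refed fish were below all fasted fish. The signal at 11 days was lower than at 4 days (-0.46, SE 0.09, limma adjusted p = 0.000862) as was that at 36 days (-0.61, SE 0.09, limma adjusted p = 2.86e-06), and in both contrasts every later fish was below the mean at 4 days.

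The remaining clones lower at 11 than at 4 days were tcay0024.i.23 and tcbi0010.p.13, taken up after their values were seen. For tcay0024.i.23 the intensity was 2.64 to 4.30 at 11 days, against 4.53 to 6.12 at 4 days, with no overlap (-0.56, SE 0.12, limma adjusted p = 0.00143). For tcbi0010.p.13 it was 1.65 to 2.75 at 11 days, against 2.17 to 3.44 at 4 days, and the ranges overlapped (-0.40, SE 0.13, limma adjusted p = 0.0416), a call that was lost in 14 of 27 other settings. Both were also lower at 36 than at 4 days (-0.53 and -0.45, limma adjusted p = 0.000532 and 0.00393).

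Other clones had a further step after 11 days. In tcba0017.g.03 the signal was 14.3 to 22.02 in fasted fish (median 19.5), 7.88 to 10.9 at 4 days (median 10.1), 9.13 to 12.2 at 7 days (median 10.6), 7.92 to 11.8 at 11 days (median 9.69) and 5.42 to 9.37 at 36 days (median 7.26). The 3 earlier refed groups were thus at about the same level, near 10, well below the fasted fish, and the last was lower still. The clone was lower at 36 than at 11 days (-0.44, SE 0.10, limma adjusted p = 0.00194) and than at 4 days (-0.46, SE 0.09, limma adjusted p = 0.000242), and the difference of 11 with 4 days was -0.02 (limma adjusted p = 0.953).

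Clone tcav0005.b.15 had 3.86 to 6.38 in fasted fish (median 4.89), 2.39 to 3.14 at 4 days (median 2.60), 2.58 to 4.48 at 7 days (median 3.14), 2.50 to 4.42 at 11 days (median 3.04) and 1.69 to 2.79 at 36 days (median 2.18). The medians at 7 and 11 days stood above that at 4 days, a difference between 11 and 4 days that missed the threshold (0.21, limma adjusted p = 0.298). The 36-day signal was lower than that of 11 days (-0.53, SE 0.12, limma adjusted p = 0.00155). It was also lower at 36 than at 4 days (-0.31, SE 0.11, limma adjusted p = 0.027), a call lost without fish 8 at 4 days (limma adjusted p = 0.0512) or without fish 4 (0.0655) or fish 5 (0.0653) at 36 days.

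In 1RT135B03_B_A02 the signal was 0.740 to 1.79 at 36 days (median 1.51), against 1.498 to 2.39 at 11 days (median 1.99) and 1.96 to 2.78 at 4 days (median 2.18). All 9 fish at 36 days were below every fish at 4 days. The log2 difference was -0.75 with 4 days (SE 0.13, limma adjusted p = 3.85e-05) and -0.55 with 11 days (SE 0.14, limma adjusted p = 0.00389).

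A pair of clones ran the other way within the refeeding period while staying below the fasted level. For 1RT117J08_D_E04 the intensity was 4.07 to 7.64 in fasted fish (median 5.37), 2.11 to 3.04 at 4 days (median 2.61), 2.94 to 4.47 at 7 days (median 3.52), 3.15 to 4.03 at 11 days (median 3.66) and 1.44 to 4.09 at 36 days (median 3.20). It had the most negative difference of the set at 4 days (-1.07), and every fish at 11 days lay above every fish at 4 days (0.47, SE 0.13, limma adjusted p = 0.0145). At 36 days the difference with 4 days was 0.20 (limma adjusted p = 0.192), with 1 fish at 1.44 far below the other 8.

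The clone higher at 36 than at 4 days was tcbk0057.b.17, which had 1.47 to 2.22 in fasted fish (median 1.70), 0.869 to 1.28 at 4 days (median 1.01), 0.906 to 1.65 at 7 days (median 1.09), 0.911 to 1.66 at 11 days (median 1.32) and 1.03 to 1.59 at 36 days (median 1.33). The refed range at 36 days overlapped with that of the fasted fish, and all 8 fish with a value at 36 days were above the mean at 4 days (0.34, SE 0.12, limma adjusted p = 0.0205). Its log2 difference with fasted fish was -0.75 at 4 days and -0.41 at 36 days. This clone was among the dimmest 25% and was not tested when these were left out.

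**Figure D4:**
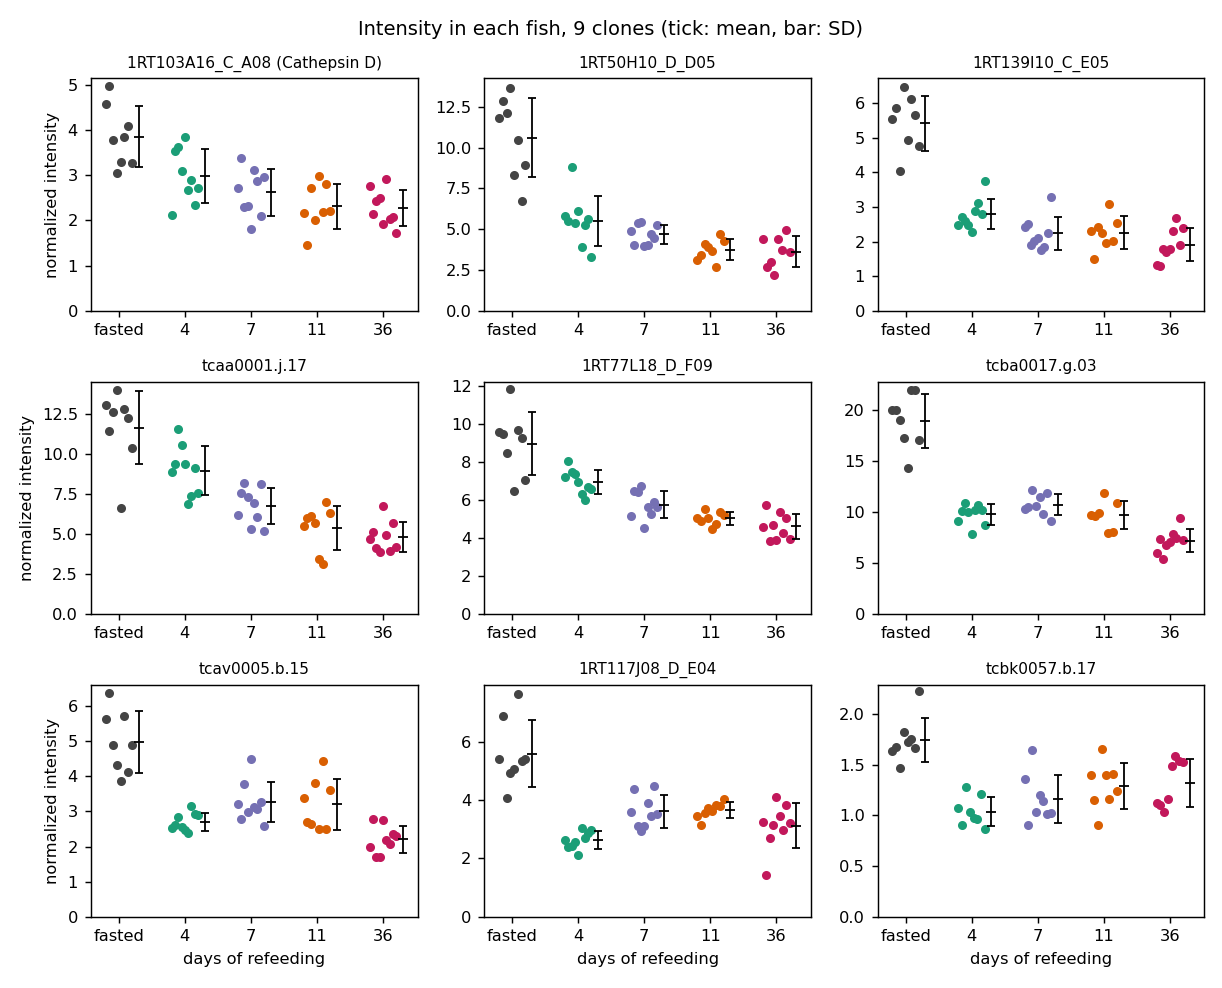
Normalized intensity in each fish for cathepsin D and 8 unnamed clones, by days of refeeding, with the mean as a tick and the SD as a bar; each panel has its own scale, starting at 0. The clones 1RT139I10_C_E05 and tcba0017.g.03 show no overlap between refed and fasted fish, tcaa0001.j.17 and 1RT77L18_D_F09 step down through 11 days, and 1RT117J08_D_E04 and tcbk0057.b.17 are lowest at 4 days.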

How the data were processed

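Total RNA of fast muscle from 43 trout was labelled with 33P by the authors and hybridised to nylon cDNA arrays read with BZScan. Spots with an oligonucleotide signal under a multiple of the background were excluded, and the deposited values are linear intensities, divided by the authors by the vector oligonucleotide signal and the array median. Array medians over the clone values used here were 2.04 to 3.63, so the authors' median was not taken over these values alone. The set of spots behind it is not given in the sources used here. The 193 control rows were left out, and empty cells and zeros were taken as missing.

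From the deposited intensities log2 values were computed for the 1561 clones present in 5 or more fish of each group. They were modelled by group with limma 3.58.1 under R 4.3.3. A clone was called at a Benjamini-Hochberg adjusted p under 0.05. The script was tested on simulated data. Counts and plots were made with Python 3.11.15, pandas 2.3.3, numpy 2.4.6 and matplotlib 3.10.9. Each array holds 1 fish, and no 2 arrays were near identical (highest r 0.980 over 697 clones). The replicate numbers did not pair the fish.

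Names were read from clone labels in pictures of the study's figures (290 of 291 labels were found in the table). The cathepsin D label was hard to read in 1 digit, which was settled by the plate position in the same label, as 3469 of 3469 clones of that collection follow 1 plate scheme. No sequence or annotation was used for unnamed clones. The text names each member with a gene name, the 2 unnamed members with the most negative mean difference, and in each refed contrast the 2 lowest p values in each direction, plus 5 members added after their values were seen. The members and lists were chosen with earlier results of these data known. Alternatives were another normalization, offset, filter, minimum of fish, threshold, set of fish, array weights, variance model and a replicate block.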

Additional observations from a re-analysis of the deposited data

Results flagged for a closer look

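In 4 instances a fish stood apart from its group in 1 of 14 clones named above, by Dixon's criterion over 75 sets of values. Members named only as nearest to the threshold were not among these 14. Chance flags about 1 in 20 sets. Fish 10 at 7 days had an intensity of 3.30 for 1RT139I10_C_E05, fasted fish 10 had 2.22 for tcbk0057.b.17, fish 4 at 7 days had 7.30 for tcay0024.i.23 and fish 6 at 7 days had 2.92 for tcbi0010.p.13.

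The differences with fasted muscle differed between refeeding times by limma's test for these clones. At 11 against 4 days the log2 differences were 0.47 for 1RT117J08_D_E04, -0.53 for 1RT50H10_D_D05, -0.46 for 1RT77L18_D_F09, -0.77 for tcaa0001.j.17, -0.56 for tcay0024.i.23 and -0.40 for tcbi0010.p.13. At 36 against 4 days they were -0.38 for 1RT103A16_C_A08 (cathepsin D), -0.75 for 1RT135B03_B_A02, -0.58 for 1RT139I10_C_E05, -0.61 for 1RT50H10_D_D05, -0.61 for 1RT77L18_D_F09, -0.44 for 1RT86C03_A_B02, -0.90 for tcaa0001.j.17, -0.31 for tcav0005.b.15, -0.53 for tcay0024.i.23, -0.46 for tcba0017.g.03, -0.45 for tcbi0010.p.13 and 0.34 for tcbk0057.b.17. At 36 against 11 days they were -0.55 for 1RT135B03_B_A02, -0.53 for tcav0005.b.15 and -0.44 for tcba0017.g.03.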

How the results depend on the processing

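The number of clones that met the rule was 57, and 23 when a value on all 43 arrays was asked for. It was 49 to 74 when each fish was left out in turn (74 without fasted fish 6), and 35 of the 57 clones were kept in all these runs. It was 41 to 64 under the other settings. Counts below are fresh counts over the 57 clones and do not say which clones were kept. The count of clones lower at 11 than at 4 days (5) was 0 at 0.0001, 10 with arrays centred again, 8 with the 2 groups alone, 10 with array weights and 3 without the 5 arrays with the fewest values, a setting chosen after seeing the data. Leaving out each fish gave 3 to 6, with 3 without fish 2 at 11 days. The count of clones higher at 11 days (1) was 0 at 0.0001, 2 with array weights, and 1 to 2 without each fish, with 2 without fish 4 at 11 days. The count of clones lower at 36 than at 4 days (21) was 3 at 0.0001 and 17 to 25 without each fish. The count of clones higher at 36 than at 4 days (1) was 0 at 0.0001, 0 without the dimmest 25% of clones (1171 clones left), 2 with array weights, and 1 to 2 without each fish, with 2 without fish 3 at 36 days. The count of clones lower at 36 than at 11 days (8) was 0 at 0.0001, 5 without the 5 arrays with the fewest values, and 5 to 10 without each fish, with 5 without fish 7 at 11 days or fish 3 at 36 days. No clone was higher at 36 than at 11 days in any setting run, leaving out fish included. The cause of these shifts was not tested. With the replicate number as a block the counts were 4 lower and 1 higher at 11 against 4 days, 22 and 1 at 36 against 4 days, and 7 and 0 at 36 against 11 days. For 82 pairs of fish with the same replicate number in different groups, deviations from the group means had r of -0.49 to 0.51. The median was -0.01, and 31 pairs were over 0.1. Fish with different numbers were not compared in this way, so whether the numbers pair the fish was not tested. The median log2 difference with fasted fish over the 57 clones stayed at -0.48 to -0.40, -0.58 to -0.48, -0.66 to -0.55 and -0.77 to -0.69 at 4, 7, 11 and 36 days. The call of 1RT50H10_D_D05 at 11 against 4 days and that of tcav0005.b.15 at 36 against 4 days were also lost without the 5 arrays with the fewest values (limma adjusted p = 0.0626 and 0.186). The clones come from 1 array per fish, and the number of arrays limits the precision.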
